A study of Mus musculus with 3 samples.

Results

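Acute phase proteins are plasma proteins whose levels in blood change within hours of injury or infection. The 9 genes described here encode the serum amyloid A proteins Saa1, Saa2, Saa3 and Saa4, the pentraxins Apcs and Crp, haptoglobin (Hp), hemopexin (Hpx) and the leucine-rich glycoprotein Lrg1. They were found on the array by gene name or older alias, which gave 11 probes out of 41172, for 9 genes out of the 19713 that could be named. Total RNA came from C57BL/6 mice: adult liver of animals 12 weeks old, fetal liver of gestation day 13.5, and bone marrow. The labels state no treatment, and leave unclear the age of the marrow donors, their sex and how many animals went into a sample. Each RNA was hybridised once, to a 1-colour Cy3 Agilent array, so no comparison has replicates, no test was possible and every value describes these 3 RNA samples.

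All 9 genes exceeded their fetal liver level at least 4-fold in adult liver, a comparison in which 14.2% of all genes compared were that much higher in adult liver and 12% that much higher in fetal liver. Against bone marrow, 7 of the 9 were higher by at least 4-fold in adult liver (18.8% of all genes compared, with 15% higher in bone marrow). The exceptions were Hp and Lrg1, whose signals in bone marrow came within 4-fold of those in adult liver and were 52.1-fold and 363-fold above those in fetal liver. Between fetal liver and bone marrow, 2 genes passed 4-fold towards fetal liver (Hpx and Saa4, with 9.29% of all genes), and 2 were that much higher in bone marrow (Hp and Lrg1, with 8.32% of all genes). The other 5 were not called at 4-fold. For Saa2, at least 1.18-fold higher in bone marrow, this is a lower bound that leaves the size of the difference open.

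The hepatocyte is the main source of circulating acute phase proteins. In the classical pathway, interleukin-6 and interleukin-1 from activated macrophages act on receptors of the hepatocyte, and STAT3, C/EBP factors and NF-kB then bind the promoters of these genes. Serum amyloid A proteins travel on high-density lipoprotein, Apcs (serum amyloid P) is the pentraxin that reacts most in the mouse, haptoglobin captures free haemoglobin and hemopexin captures free heme. Haptoglobin and Lrg1 are also made by developing neutrophils and stored in their granules. The fetal liver at this stage holds hepatoblasts among a large number of blood-forming cells, and the bone marrow of adult mice holds mainly blood cells, many of them neutrophils.

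The values below are the background-subtracted signals of the scanner software, each followed by the software's error for the spot, which covers measurement of that spot and not variation between animals. To compare arrays, each signal was divided by the 75th percentile of the gene signals on its array (296 in adult liver, against 387 in fetal liver and 894 in bone marrow), which gives the scaled signal. Well above background were 52.6%, 58.7% and 58.8% of gene spots, and no spot was saturated. The lowest signals that counted as well above background were 18.9, 15 and 23.7 on these arrays. Where a probe was not well above background in 1 tissue, the fold is a lower bound, taken over the array's lowest scaled signal well above background, or over the probe's own where that was higher, and is written as at least. In such bulk tissue, fewer cells of a type and less RNA per cell cannot be told apart. The 3 arrays lay on 1 slide and were read in 1 scan. Scaling to the spike-in RNAs instead of the 75th percentile moved every log2 difference by -0.54 for adult over fetal liver, by -2.85 for adult liver over bone marrow and by -2.31 for fetal liver over bone marrow, shifts of 1.45-fold, 7.2-fold and 4.95-fold, so differences from bone marrow up to and past 4-fold depend on that choice.

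Upstream sequence was set beside the levels to describe what the members share there. The 250 bases before the annotated transcription start were taken from RefSeq on build GRCm38.p6 for 8 of the 9 members, all but Hp. Matches are given on both strands for C/EBP letters (TTGCNNAA), STAT letters (TTCNNNGAA) and NF-kB letters (GGG and CC with any 5 bases between them), and on the gene's strand for a TATA box (TATAAA). The C/EBP letters occurred in 5 of 8 members (Saa1, Saa2, Saa3, Saa4 and Hpx), against 9.56% of 32851 windows of the same length. All of these but Hpx belong to the Saa family, and the Saa1 and Saa2 windows are near copies. The matches are therefore not independent, and outside that family Hpx alone had the letters. The NF-kB letters also occurred in 5 of 8 (Saa1, Saa2, Saa4, Crp and Lrg1), against 45.8% of windows, and are common enough that a match says little. STAT letters were in Apcs alone (7.02% of windows) and the TATA letters in Crp alone (7.59%).

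The windows of Saa1 and Saa2 are shown because these neighbouring genes are close copies, and those of Saa3 and Hpx because they carry the C/EBP letters too. That of Lrg1 is shown because this gene was high in marrow. Capitals mark every match to the letters above, and each sequence runs 5′ to 3′ on the gene's strand. Saa1 lies at chr7:46742981-46743230 on the minus strand, Saa2 at chr7:46751583-46751832 on the plus strand, Saa3 at chr7:46715677-46715926 on the minus strand, Hpx at chr7:105600117-105600366 on the minus strand and Lrg1 at chr17:56121947-56122196 on the minus strand.
Saa1: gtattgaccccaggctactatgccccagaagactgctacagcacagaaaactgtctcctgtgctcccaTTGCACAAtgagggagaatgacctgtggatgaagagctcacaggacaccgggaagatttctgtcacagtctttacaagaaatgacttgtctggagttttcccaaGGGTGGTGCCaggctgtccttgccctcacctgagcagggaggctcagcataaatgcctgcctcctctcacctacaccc
Saa2: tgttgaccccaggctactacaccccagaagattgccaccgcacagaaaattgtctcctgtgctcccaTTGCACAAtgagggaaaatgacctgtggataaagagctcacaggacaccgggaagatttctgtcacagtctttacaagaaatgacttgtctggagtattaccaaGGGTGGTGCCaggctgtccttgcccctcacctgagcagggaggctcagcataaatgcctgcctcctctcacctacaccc
Saa3: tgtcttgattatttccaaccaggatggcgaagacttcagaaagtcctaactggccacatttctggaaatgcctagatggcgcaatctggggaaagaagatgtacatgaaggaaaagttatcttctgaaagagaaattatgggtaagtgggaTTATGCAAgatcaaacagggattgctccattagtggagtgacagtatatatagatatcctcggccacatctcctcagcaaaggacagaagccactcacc
Hpx: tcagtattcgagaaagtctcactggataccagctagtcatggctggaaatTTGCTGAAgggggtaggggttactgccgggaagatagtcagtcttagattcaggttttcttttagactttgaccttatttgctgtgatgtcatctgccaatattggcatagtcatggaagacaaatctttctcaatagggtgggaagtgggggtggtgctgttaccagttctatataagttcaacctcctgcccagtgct
Lrg1: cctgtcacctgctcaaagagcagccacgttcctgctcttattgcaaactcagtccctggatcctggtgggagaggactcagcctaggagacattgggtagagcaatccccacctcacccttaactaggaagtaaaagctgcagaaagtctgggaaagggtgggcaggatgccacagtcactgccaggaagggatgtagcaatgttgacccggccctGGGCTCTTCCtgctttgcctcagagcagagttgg
The Saa1 and Saa2 windows were identical in 238 of 251 aligned columns (94.8%), with 11 substitutions and 2 gap columns, and both held the C/EBP and NF-kB letters in the same order. The other pairs of Saa windows were 44.9% to 48.2% identical. The C/EBP match began 182 bases before the start in Saa1 and 183 in Saa2, 99 bases before it on the opposite strand in Saa3, and 200 bases before it in Hpx. In Lrg1 the NF-kB match ran between bases 34 and 25 before the start. These matches describe letters and are not evidence of binding.

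**Figure D1:**
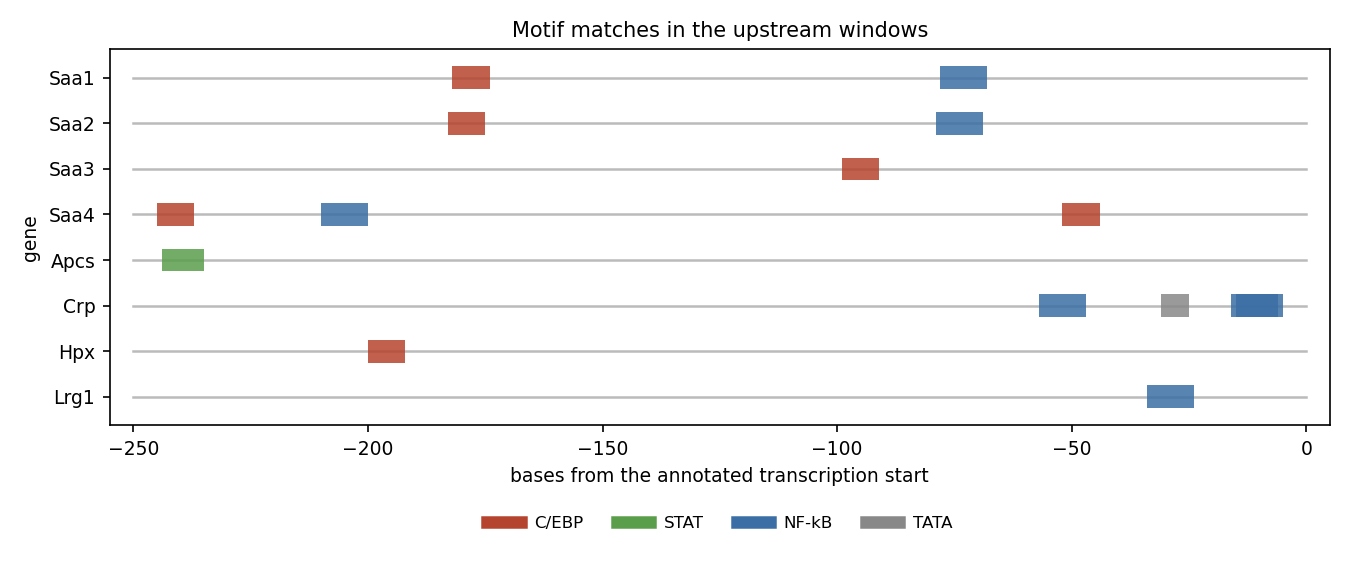
Matches to the motif letters in the 250 bases before the transcription start of 8 members. The horizontal axis gives bases from the annotated start, each grey line is 1 gene, and coloured blocks are matches to C/EBP, STAT, NF-kB or TATA letters on either strand (TATA on the gene's strand). The blocks of Saa1 and Saa2 sit at nearly the same places.

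Saa1 and Saa2 encode the serum amyloid A forms that hepatocytes secrete in the acute phase. The Saa2 probe (mm9, chromosome 7, 54009535 to 54009594, plus strand) gave signals of 11500 ± 1150 in adult liver, against 12 ± 3.62 in fetal liver and 40.8 ± 6.67 in bone marrow, or scaled signals of 38.9, 0.031 and 0.0456. Saa2 was thus high in adult liver, not well above background in fetal liver and low but well above background in bone marrow. Adult liver exceeded fetal liver at least 1002-fold and bone marrow 851-fold (log2 difference 9.73 ± 0.28, spot error). With another background correction, normexp, these log2 differences were 7.57 and 8.15.

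Saa1 was read by probes that disagreed in the low tissues. Its first probe (chromosome 7, 53996070 to 53996129, minus strand) gave 8550 ± 855 in adult liver, against 459 ± 46 in fetal liver and 1070 ± 107 in bone marrow, or scaled signals of 28.9, 1.19 and 1.2. On that probe Saa1 was 24.4-fold higher in adult than in fetal liver (4.61 ± 0.20) and 24.1-fold higher than in bone marrow (4.59 ± 0.20). With spike-in scaling the difference from bone marrow was 1.75, under 4-fold. Fetal liver and marrow did not differ beyond spot error (-0.01 ± 0.20), although scaling to spike-ins put marrow higher (-2.32). The second probe, whose target spans 473 bases of the genome (53996167 to 53996639) against 60 for the first, gave 2850 ± 285 in adult liver, against 3.27 ± 3.26 in fetal liver and 16.6 ± 5.32 in bone marrow. It was not well above background in fetal liver or marrow, and adult liver exceeded them at least 248-fold and at least 363-fold. Both probes had adult liver highest, but the moderate Saa1 signal in fetal liver and marrow rests on the first. For the Saa3 probe the array file also lists the transcript record of both Saa1 probes, and how far any of these probes binds RNA of another Saa gene was not tested.

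Saa3 encodes the form made largely outside the liver, in macrophages and fat, in the mouse. Its probe (chromosome 7, 53968031 to 53968090, minus strand) gave 717 ± 71.9 in adult liver, against 47.3 ± 6.09 in fetal liver and 49.3 ± 7.7 in bone marrow, or scaled signals of 2.42, 0.122 and 0.0551. Adult liver was again the high tissue, 19.8-fold above fetal liver (4.31 ± 0.24) and 43.9-fold above bone marrow (5.46 ± 0.27), with 3.06 and 4.07 under normexp. Fetal liver was 2.22-fold above marrow (1.15 ± 0.29), a direction that turned with spike-in scaling (-1.16). Of 14 macrophage markers, 14 in adult liver, against 12 in fetal liver and 13 in bone marrow were well above background, with summed scaled signals of 117, 63.5 and 70.8. Of 9 adipocyte markers the numbers were 5, 4 and 6, with sums of 397, 12.6 and 21.3. In adult liver Car3, which hepatocytes also express, made up 332 of the sum, Cidec, Cfd, Fabp4 and Lpl were well above background, and Adipoq, Plin1, Lep and Retn were not. Adipoq, the fat cell hormone adiponectin, gave 2500 in bone marrow. The part of these cells in the Saa3 result was not tested.

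Saa4 encodes the constitutive form, which is present in plasma without inflammation. Its first probe (chromosome 7, 53984760 to 53984819, minus strand) gave 8500 ± 850 in adult liver, against 454 ± 45.5 in fetal liver and 5.3 ± 5.27 in bone marrow, or scaled signals of 28.7, 1.17 and 0.00593. Unlike Saa1 and Saa2, Saa4 was clearly present in fetal liver on both of its probes and not well above background in marrow on either. Adult liver was 24.5-fold above fetal liver (4.61 ± 0.20) and at least 1083-fold above bone marrow, and fetal liver was at least 44.3-fold above bone marrow. Under normexp the bounds against marrow were log2 8.04 and 3.69. The second probe (53983662 to 53983721) gave 4210 ± 422, 350 ± 35.2 and 5.54 ± 5.51 in the same order of tissues, with adult liver 15.7-fold above fetal liver and at least 537-fold above marrow.

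**Figure D2:**
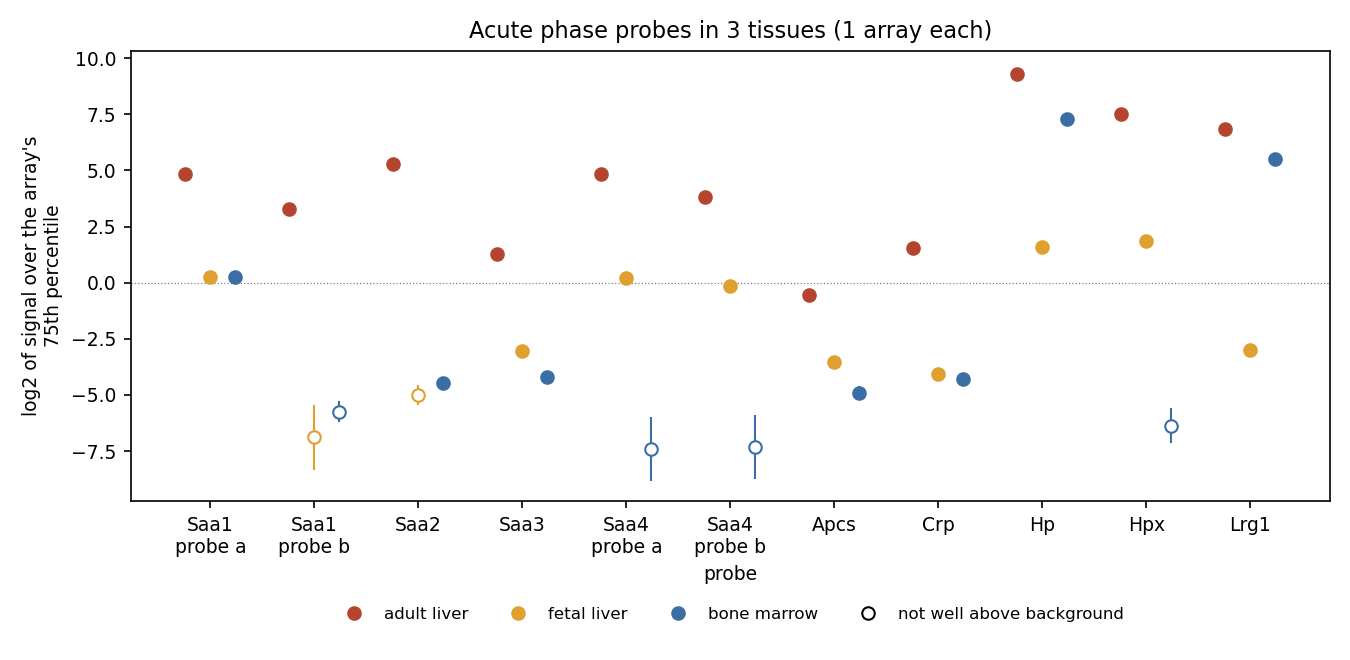
Scaled signals of the 11 probes in the 3 tissues, as log2 of signal over the array's 75th percentile (vertical axis), 1 array per tissue. Bars show the scanner software's spot error and open circles mark probes not well above background. Adult liver is highest for every probe, and bone marrow lies near it for Hp and Lrg1.

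The pentraxins form pentameric plasma proteins that bind phosphocholine and other ligands on damaged cells and bacteria. The Apcs probe (chromosome 1, 174824959 to 174825018, minus strand) gave 203 ± 20.6 in adult liver, against 33.6 ± 4.51 in fetal liver and 30.1 ± 5.64 in bone marrow, or scaled signals of 0.686, 0.0868 and 0.0337. Adult liver was 7.9-fold above fetal liver (2.98 ± 0.24) and 20.4-fold above bone marrow (4.35 ± 0.31, and under 4-fold at 1.5 with spike-in scaling), but the level stayed under the array's 75th percentile there too. Fetal liver was 2.58-fold above marrow (1.37 ± 0.33), turning to -0.94 with spike-in scaling. Under normexp the difference between adult and fetal liver was also under 4-fold, at a log2 of 1.83, and that between adult liver and marrow was 2.91.

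Crp, the C-reactive protein gene, is a weak acute phase reactant in the mouse. Its probe (chromosome 1, 174629452 to 174629511, plus strand) gave 870 ± 87.1 in adult liver, against 23.4 ± 3.88 in fetal liver and 45.5 ± 6.64 in bone marrow, or scaled signals of 2.94, 0.0605 and 0.0509. Crp was high in adult liver only, 48.6-fold above fetal liver (5.60 ± 0.28) and 57.8-fold above bone marrow (5.85 ± 0.26), with smaller log2 differences of 3.82 and 4.55 under normexp. Fetal liver and bone marrow did not differ beyond spot error (0.25 ± 0.32), and the sign between them turned with quantile normalization (-0.24) and with spike-in scaling (-2.06).

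Hemopexin and haptoglobin protect tissues from heme and haemoglobin, and their levels in marrow parted. The Hpx probe (chromosome 7, 112740304 to 112740363, minus strand) gave 54700 ± 5470 in adult liver, against 1390 ± 139 in fetal liver and 10.9 ± 5.92 in bone marrow, or scaled signals of 185, 3.59 and 0.0122. Hpx was present in both livers and not well above background in bone marrow. Adult liver exceeded fetal liver 51.5-fold (5.69 ± 0.20) and bone marrow at least 6971-fold, and fetal liver exceeded bone marrow at least 135-fold. Under normexp the bounds against marrow were log2 10.56 and 5.02.

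The Hp probe (chromosome 8, 112099172 to 112099231, minus strand) gave 184000 ± 18400 in adult liver, against 1180 ± 118 in fetal liver and 142000 ± 14200 in bone marrow, or scaled signals of 622, 3.05 and 159. Fetal liver was the low tissue, though still well above background. Adult liver was 204-fold above fetal liver (7.67 ± 0.20), and fetal liver was 52.1-fold below bone marrow (-5.70 ± 0.20). Between adult liver and bone marrow the difference was 3.91-fold (1.97 ± 0.20), just short of 4-fold, with 1.28 under quantile normalization, and its sign turned with spike-in scaling (-0.88), so which of these tissues was higher is not settled here.

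Lrg1 encodes a secreted leucine-rich glycoprotein that binds transforming growth factor beta receptors and acts on blood vessels. Its probe (chromosome 17, 56259257 to 56259316, minus strand) gave 33600 ± 3360 in adult liver, against 48.6 ± 6.25 in fetal liver and 40800 ± 4080 in bone marrow, or scaled signals of 114, 0.126 and 45.6. Lrg1 thus had the same order as Hp, high in adult liver and marrow and low in fetal liver. Adult liver was 904-fold above fetal liver (9.82 ± 0.24), and fetal liver was 363-fold below bone marrow (-8.51 ± 0.24), with 8.48 and -7.37 under normexp. The 2.49-fold difference between adult liver and bone marrow (1.31 ± 0.20, and 0.61 under quantile normalization) again turned sign with spike-in scaling (-1.53).

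**Figure D3:**
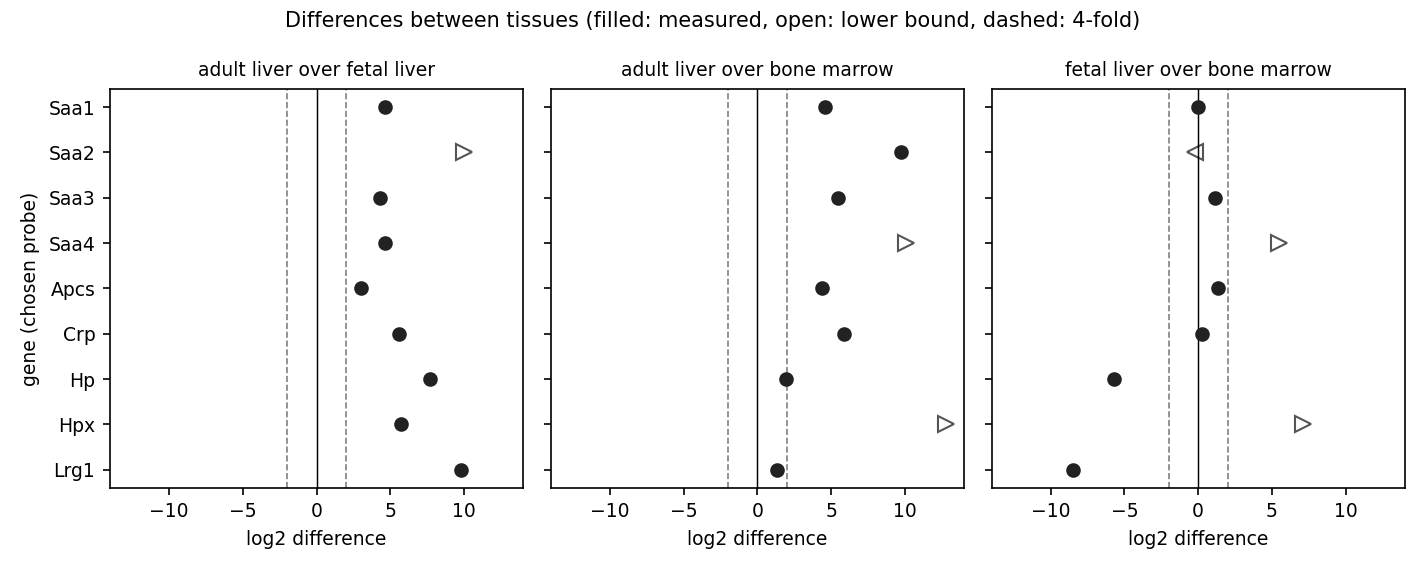
Log2 differences of the 9 genes for adult over fetal liver, adult liver over bone marrow and fetal liver over bone marrow. Filled circles are measured differences, open triangles are lower bounds pointing away from 0, and dashed lines mark 4-fold. Every gene lies to the right in the first panel, while Hp and Lrg1 lie far to the left in the third.

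Hp and Lrg1 were the members that exceeded fetal liver at least 4-fold in both adult liver and bone marrow, 2 of 9, a pattern shown by 236 of 13693 genes compared (1.72%) and looked for after the values were seen. Scaling to spike-ins raised the members with it to 5, but put 53.7% of all genes at least 4-fold higher in bone marrow than in fetal liver. The share of all genes with the pattern was not computed for that scaling, so the rise is not read as a result about the members. Among 23 other positive acute phase genes, 4 of the 21 compared had it, namely the orosomucoids Orm1 and Orm2, the copper oxidase ceruloplasmin (Cp) and the endotoxin co-receptor Cd14. So did 6 of 24 receptors and clearance partners and 3 of 14 macrophage markers, lists that share Cd163 and C1qa. It was also found in 2 of 21 cytokine, receptor and transducer genes and 1 of 18 transcription factors. None of the 16 neutrophil markers or of the 11 hepatocyte markers compared had it. The signals of Cp were 19100 in adult liver, against 53.8 in fetal liver, with 957 in bone marrow. Those of Orm1 were 6570 in adult liver, against 3.16 (not well above background) in fetal liver and 1120 in bone marrow. The complement gene C3, on the same list but without this pattern, gave 231500 in adult liver, against 25970 in fetal liver and 131600 in bone marrow. So Hp was not the only hepatic plasma protein gene with a clear signal in marrow.

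The 2 tissues with high Hp and Lrg1 differed in their cell markers. Of 16 neutrophil markers, 5 in adult liver, against 16 in fetal liver and 16 in bone marrow were well above background, with summed scaled signals of 3.6, 152 and 2538. All 16 were at least 4-fold lower in adult liver than in bone marrow (15% of all genes). The median was 710-fold, with 11 of them at bounds. Likewise all 16 were at least 4-fold lower in fetal liver than in bone marrow (8.32% of all genes), with a median of 156-fold. S100a8 and S100a9, the calprotectin subunits, were the brightest in marrow, and Mpo, Elane, Camp and Ltf, which define neutrophil granules, were not well above background in adult liver. Of 13 hepatocyte markers, 13 in adult liver, against 11 in fetal liver and 5 in bone marrow were well above background, with sums of 3453, 473 and 0.994, and in marrow Alb, Apoa1, Apoa2, Apob, Cps1, Cyp2e1, Fga and Ttr were not well above background while Tat (372), Asgr1 (265), Hnf4a (97), Ahsg (74.2) and Fgb (32.2) were. Hnf4a has 3 probes, and the chosen probe, picked by how often it was well above background and then by brightness, gave only 133 in adult liver. The part of either cell type in the marrow signals of Hp and Lrg1 was not tested. Lcn2, lipocalin 2, which the neutrophil list and the positive reactant list both hold, gave 44.8 in adult liver, against 44.3 in fetal liver and 67200 in bone marrow, so it was high in marrow alone.

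**Figure D4:**
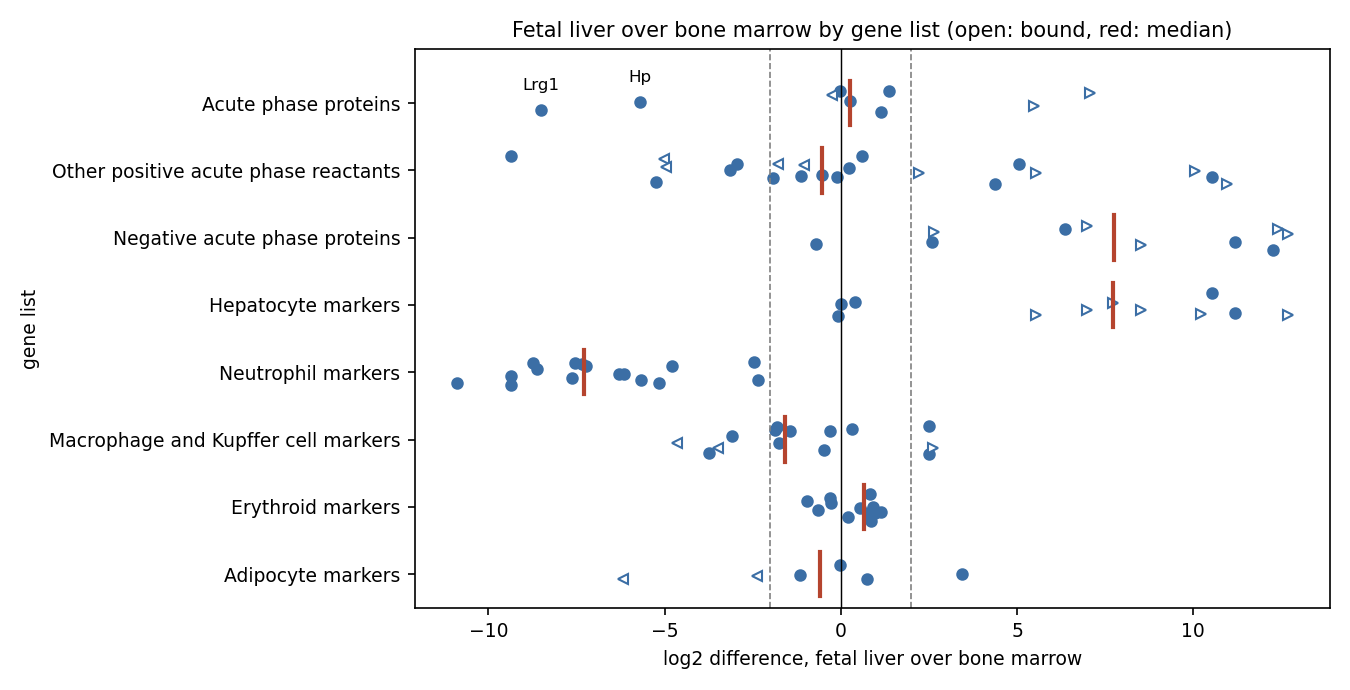
Log2 differences of fetal liver over bone marrow by gene list, 1 point per gene. Open triangles are bounds, red bars are list medians with bounds counted at their value, and dashed lines mark 4-fold. Hp and Lrg1 lie on the bone marrow side, where all 16 neutrophil markers lie, while negative acute phase and hepatocyte genes lie mostly on the fetal liver side. Macrophage markers and other positive acute phase genes lie on both sides.

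As a list, the 9 members had a median difference of 48.6-fold for adult over fetal liver (log2 5.60, against -0.05 over all genes compared), 43.9-fold for adult liver over bone marrow (5.46 against 0.09) and 1.19-fold for fetal liver over bone marrow (0.25 against 0.26), with bounds counted at their value. Of 125 genes called between adult liver and bone marrow over all lists, members and cell markers included, spike-in scaling turned the sign of 11, among them C3, Il6st, Il1r1, Hnf4a, Scarb1 and Eng. Of the other positive acute phase genes, 17 of 23 were at least 4-fold higher in adult than in fetal liver (14.2% of all genes). Lower were 2, a smaller share than the 12% of all genes, and the median was 11.7-fold. The protease inhibitor gene Serpina3m was 2998-fold higher in adult liver, the lectin Mbl2 1939-fold and the iron hormone Hamp at least 906-fold. The exceptions were the metallothioneins, which bind zinc and copper, with Mt2 117-fold and Mt1 81-fold lower in adult than in fetal liver. Against bone marrow, 15 of 23 were higher in adult liver (18.8% of all genes). Only 2 were lower, a smaller share than the 15% of all genes, namely Lcn2 (497-fold) and the interleukin-1 antagonist Il1rn (21.7-fold). The fibrinogen chains Fgg (at least 21410-fold) and Fgb (13601-fold) and Mbl2 (at least 9074-fold) led those higher in adult liver. Between fetal liver and bone marrow, 7 of 21 were higher in fetal liver (9.29% of all genes) and 6 were lower (8.32% of all genes). Fgg (at least 1998-fold), Fgb (1464-fold) and Itih3 (at least 1053-fold) led those higher. Lcn2 (657-fold), Il1rn (38-fold) and Orm1 (at least 32.3-fold) led those lower.

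Negative acute phase proteins, whose plasma levels drop in inflammation, were mostly higher in adult liver. In adult against fetal liver, 9 of 11 were at least 4-fold higher (14.2% of all genes) and none lower (12% of all genes). The median was 10.4-fold, and Fetub (743-fold), Igf1 (85.4-fold) and the vitamin D carrier Gc (82.6-fold) led. Against bone marrow all 11 were higher in adult liver (18.8% of all genes), led by Alb (at least 37339-fold), Rbp4 (13287-fold) and Ahsg (9769-fold). In fetal liver against bone marrow, 9 of the 10 compared were higher in fetal liver (9.29% of all genes), with a median of 215-fold. Alb (at least 6618-fold), the corticosteroid carrier Serpina6 (at least 5351-fold) and the retinol carrier Rbp4 (4925-fold) led them. In that comparison 2 of the 9 members were higher in fetal liver, and the difference between these counts was not tested.

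Of 25 genes for acute phase cytokines, their receptors and transducers, 21 could be compared between the livers. Of these, 6 passed 4-fold towards adult liver, led by Il1rap (at least 200-fold), Il1b (at least 41.6-fold) and the oncostatin M receptor Osmr (11.3-fold), 1 was lower (Jak2, 5.02-fold) and 14 were within 4-fold. Il6 itself gave 14.7 in adult liver and 6.01 in fetal liver, both not well above background, and 95.7 in bone marrow. Il6ra, its receptor, gave 191, 36.4 and 436 in adult liver, fetal liver and bone marrow, or scaled signals of 0.645, 0.0941 and 0.488. Stat3, the factor that this receptor activates, gave 4709, 3198 and 5612, or scaled signals of 15.9, 8.26 and 6.28. Once scaled, adult liver was thus highest for both, though differences of this size from bone marrow depend on the scaling. Il1b gave 478 in adult liver, against 13.3 (not well above background) in fetal liver and 14230 in bone marrow, so the inflammatory cytokine was brightest in marrow. Among the 24 compared between fetal liver and bone marrow, 2 were higher in fetal liver (Lifr 11.8-fold and Il1r1 8.86-fold) and 5 were lower, led by Il1b (at least 411-fold), Osm (7.88-fold) and Tnf (5.39-fold). Against bone marrow, 5 of 23 were higher in adult liver, led by Lifr (60.4-fold), Il1rap (60.1-fold) and Il11ra1 (8.29-fold), and 3 were lower, namely Il1b (9.87-fold), Jak2 (7.65-fold) and Osm (6.28-fold). The shares higher in the livers than in bone marrow lie near those of all genes (18.8% for adult liver and 9.29% for fetal liver). The share lower in adult liver than in bone marrow also lies near that of all genes (15%). These are not read as a result about this list. Of all genes, 14.2% were higher in adult than in fetal liver and 12% lower, and 8.32% were lower in fetal liver than in bone marrow.

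Among 19 transcription factors known from acute phase promoters, 18 could be compared, and 9 were at least 4-fold above fetal liver in adult liver, with none lower. They included the bile acid receptor Nr1h4 (38.7-fold), Ppara (36-fold) and Cebpa (15.6-fold). Against bone marrow, 9 were higher in adult liver, Nr1h4 by at least 1079-fold and Ppara by at least 645-fold, and 2 were lower. Between fetal liver and bone marrow, 6 were higher in fetal liver, among them Foxa2 (at least 160-fold) and Onecut1 (at least 43.2-fold), and 3 were lower, namely Cebpd, the NF-kB inhibitor Nfkbia (7.51-fold) and Nfkb1 (4.12-fold). Cebpd, a C/EBP factor induced in inflammation, ran the other way, with signals of 2030 in adult liver, against 1130 in fetal liver and 53800 in bone marrow, which was 8.77-fold lower in adult liver and 20.6-fold lower in fetal liver than in bone marrow. Nfkb1 was 4.74-fold lower in adult liver than in marrow on the chosen probe, and the sign turned when its probes were averaged. Over all genes compared, 14.2% were at least 4-fold higher in adult than in fetal liver and 12% lower. Against bone marrow, 18.8% were higher in adult liver and 15% lower, and 9.29% were higher in fetal liver and 8.32% lower. The share lower in adult liver than in bone marrow was no larger than that of all genes and is not read as a result.

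Of 25 receptors and clearance partners, 24 could be compared. Cd163, the macrophage receptor for haptoglobin bound to haemoglobin, gave 562 in adult liver, against 4.67 (not well above background) in fetal liver and 871 in bone marrow. Its scaled signals were 1.9, 0.0121 and 0.974, so it had the order of Hp and Lrg1 as far as fetal liver being low. Lrp1, the receptor for hemopexin bound to heme, gave 9230 in adult liver, against 1320 in fetal liver and 2050 in bone marrow, or scaled signals of 31.2, 3.41 and 2.29. The formyl peptide receptor Fpr2, which binds serum amyloid A, gave 30.9, 18.9 and 16100, 173-fold lower in adult liver and 369-fold lower in fetal liver than in bone marrow. Over the list, 8 passed 4-fold towards adult liver against fetal liver and none was lower, led by the complement gene C4b (504-fold), Cd163 (at least 49-fold) and the lipoprotein enzyme Lcat (20.2-fold). Against bone marrow, 5 were higher in adult liver, led by Lcat (at least 422-fold), C4b (72.2-fold) and Lrp1 (13.6-fold), and 7 were lower, led by Fpr2, Fpr1 (27.3-fold) and Tlr2 (15.8-fold). Between fetal liver and bone marrow, Lcat alone was higher in fetal liver (at least 20.9-fold) and 13 were lower, led by Fpr2, Fpr1 (119-fold) and Cd163 (at least 25.1-fold). Of all genes compared, 14.2% were at least 4-fold higher in adult than in fetal liver and 12% lower. Against bone marrow, 18.8% were higher in adult liver and 15% lower, and 9.29% were higher in fetal liver and 8.32% lower. The shares higher in either liver than in bone marrow lie near or below those of all genes and are not read as results.

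Genes with a like pattern were looked for among the 11690 genes well above background in all 3 tissues, by the distance between centred log2 levels, which leaves out Saa2, Saa4 and Hpx. With 3 tissues many genes can come close, and these are descriptions. The nearest to Crp was Itih4, an inter-alpha-trypsin inhibitor heavy chain gene, at a distance of 0.04, and the nearest to Apcs was Pcx, the pyruvate carboxylase gene, also at 0.04. Next came Phyh (0.08) and Ass1 (0.13) for Crp, and Suclg2 (0.05) and Fam20c (0.07) for Apcs. Saa1 on its first probe was nearest to Olfr166 (0.07), D130020L05Rik (0.10) and C1ra (0.13), and Saa3 to Deptor (0.07), Upb1 (0.08) and Erbb3 (0.09). No gene came that close to the others, since Hp was 0.58 from Xdh, the xanthine dehydrogenase gene, and Lrg1 was 0.94 from Wfdc21. The next for Hp were Hsd11b1 (0.66) and AW112010 (0.72), and for Lrg1 Hsd11b1 (1.55) and Xdh (1.74). The scaled signals of Wfdc21 were 141 in adult liver, against 0.377 in fetal liver and 70.6 in bone marrow.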

How the data were processed

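Per the labels' protocols, total RNA was amplified and labelled with Cy3, and Agilent Feature Extraction 10.5.1.1 produced the spot values, per the submitters' processing notes. Per the file headers, the deposited signal intensity is linear, background-subtracted and without normalization across arrays. The authors also deposited a table whose raw column matches that signal's error (tolerance 1%) for 45018 of 45018 spots per array, and whose normalized ratio column is this error over its 75th percentile, so it served only as an alternative.

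Here, log2 of the signal minus its 75th percentile over gene spots was computed in Python 3.11.15 with pandas 2.3.3, without control spots and outlier spots (71 to 80 an array). Probes were named through the accession (24831), a current symbol (6058) or an older symbol (1795), and 8488 were not named. Where a gene had several probes, the one well above background on the most arrays stood for it, or the brightest of equals. A difference was called at 4-fold, and the calculation was tested on simulated data. Probe coordinates are mm9. All members are named in the text, of the pathway lists the 3 with the largest folds each way, and for each member measured everywhere the 3 genes nearest in pattern. C3, Cp, Orm2, Cd14, Il6, Il6ra and Stat3 were named after their values were seen. A gene and a motif that was also searched are not reported here. Members and lists were chosen with earlier results of these data known. Normexp used limma 3.58.1 with an offset of 50.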

Additional observations from a re-analysis of the deposited data

How the results depend on the processing

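Over 208 alternative values of the members' differences, 128 moved by less than the spot error or not at all and 80 moved further. None that was called changed sign. The first count overstates stability, because some settings could hardly move a value. Keeping outlier spots left every member value as it was, and requiring both arrays well above background only drops bounds. Averaging probes could move only Saa1 and Saa4. The authors' normalized values derive from the spot error, which is about 10% of the signal for bright spots. For genes bright on both arrays they therefore give nearly the same difference, as for Hp in adult over fetal liver (7.65 against 7.67). For bounds the spot error included that of the dim spot and was wide. The members at least 4-fold higher in adult than in fetal liver numbered 8 or 9 in every setting. Those 4-fold above bone marrow numbered 5 (spike-in scaling, or both arrays well above background, where 15.8% of all genes were) or 7, and 9 were 2-fold above it. In fetal liver over bone marrow, the 2 members higher in fetal liver became 0 when both arrays had to be well above background (6.81% of all genes) and 4 at a 2-fold threshold. Shares of all genes at 2-fold were not computed, so the counts at 2-fold are not read as results. Scaling to spike-ins raised the members lower in fetal liver than in bone marrow from 2 to 5, and those at least 4-fold higher in both adult liver and bone marrow than in fetal liver also to 5, an analysis chosen after seeing the data. The same scaling gave 5.8% of all genes higher in adult liver and 66.6% higher in bone marrow, against 18.8% and 15%, and 2.22% higher in fetal liver and 53.7% higher in bone marrow, against 9.29% and 8.32%. Normexp called 864 and 837 genes higher in fetal liver and in bone marrow, against 1364 and 1222, and 1101 higher in fetal than in adult liver, against 1704. With 1 array per tissue no replicate could be left out. Dim signals close to the lowest well above background limit the sizes of the largest folds.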
